A study of Mus musculus with 4 samples.

Results

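The naive pluripotency transcription factors are DNA-binding proteins and cofactors that keep mouse embryonic stem cells in a state like that of the early epiblast. They comprise Nanog, Esrrb, Klf2, Klf4, Klf5, Tfcp2l1, Tbx3, Nr5a2, Zfp42 and Nr0b1, 10 of the 22180 genes with a probe set of their own. Members were chosen by their gene symbols. Each gene had 1 probe set, and none of these 10 probe sets was assigned to a further gene.

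Expression was measured in Prdm14-deficient mouse embryonic stem cells kept in 2i and LIF on STO fibroblast feeders, with 1 array for each of 4 groups. Per the labels, all groups, the control included, are knockouts for endogenous Prdm14. The cells expressed mouse PRDM14, sea urchin PRDM14, sea urchin PRDM14 plus sea urchin CBFA2T, or an empty vector. The arrays are called the mouse, sea urchin, CBFA2T and empty vector arrays below. The 2i inhibitors block MEK and GSK3, and LIF is the cytokine that activates STAT3. The sources used here do not say whether each line is 1 clone or which promoter drove each vector. The total RNA may hold that of feeder cells too, and in such bulk RNA fewer cells of a type and less RNA per cell cannot be told apart.

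These factors form a network with several inputs. LIF acts through STAT3 on Klf4 and Tfcp2l1, GSK3 inhibition relieves repression of Esrrb by TCF7L1, and MEK inhibition protects the KLF2 protein. PRDM14 is a PR domain zinc finger protein that, with the co-repressor CBFA2T2 in mouse cells, represses FGF receptor signalling and de novo DNA methyltransferase genes. The comparisons ask whether the sea urchin protein, alone or with its CBFA2T partner, changes this network as mouse PRDM14 does.

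Start-site windows of 4 factors are shown because these genes had the 2 contrasting patterns described below. Tfcp2l1 and Klf4 were highest on the mouse array, and Nanog and Klf2 were highest on the CBFA2T array. The windows are from RefSeq, build GRCm38.p6, and run from 250 bases before to 50 bases after the annotated start, 5′ to 3′ on the gene's strand. Capitals mark matches on either strand to the GC box GGGCGG or to GCATNACAA, the core of the composite octamer and SOX element. Windows were found for 8 of the 10 factors, all but Klf5 and Tbx3.
Tfcp2l1, chr1:118627695-118627994, plus strand: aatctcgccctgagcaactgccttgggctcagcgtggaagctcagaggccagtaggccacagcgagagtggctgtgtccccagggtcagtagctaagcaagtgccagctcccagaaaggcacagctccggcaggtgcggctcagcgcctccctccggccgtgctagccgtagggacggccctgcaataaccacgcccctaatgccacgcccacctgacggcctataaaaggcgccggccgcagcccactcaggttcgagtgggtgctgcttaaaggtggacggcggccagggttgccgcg
Klf4, chr4:55532426-55532725, minus strand: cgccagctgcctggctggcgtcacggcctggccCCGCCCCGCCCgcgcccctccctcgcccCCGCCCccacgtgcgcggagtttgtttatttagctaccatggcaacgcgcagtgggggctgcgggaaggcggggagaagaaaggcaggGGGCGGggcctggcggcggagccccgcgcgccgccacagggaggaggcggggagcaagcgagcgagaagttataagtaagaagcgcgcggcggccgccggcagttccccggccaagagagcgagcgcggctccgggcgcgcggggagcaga
Nanog, chr6:122707315-122707614, plus strand: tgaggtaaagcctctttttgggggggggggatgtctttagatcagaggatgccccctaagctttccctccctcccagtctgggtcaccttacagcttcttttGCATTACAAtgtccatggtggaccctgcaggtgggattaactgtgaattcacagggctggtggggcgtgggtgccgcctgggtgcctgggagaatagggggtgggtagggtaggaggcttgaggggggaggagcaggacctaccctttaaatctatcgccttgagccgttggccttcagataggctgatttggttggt
Klf2, chr8:72318812-72319111, plus strand: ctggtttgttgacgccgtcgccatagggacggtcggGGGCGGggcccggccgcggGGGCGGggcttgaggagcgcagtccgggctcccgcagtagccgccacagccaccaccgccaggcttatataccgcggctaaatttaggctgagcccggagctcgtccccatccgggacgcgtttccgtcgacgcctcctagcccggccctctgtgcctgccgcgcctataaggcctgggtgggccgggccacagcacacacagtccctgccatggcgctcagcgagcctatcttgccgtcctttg

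Of these motifs, GCATNACAA was found in both Nanog windows, which overlap and hold the same match, and in 0.731% of 32851 RefSeq windows. The match began 148 bases before the start in the window shown and 72 bases before the other start. The GC box, bound by KLF and SP proteins, was found in the windows of Klf4, Klf2 and Zfp42 and in 35.7% of all windows. GGTCTCTAA, a motif reported for PRDM14, was in 0 of the 11 windows of these factors and in 0.256% of all windows. The STAT motif TTCNNNGAA was in 1 of 2 Esrrb windows (8.30% of all), the octamer ATGCAAAT was in the Zfp42 window (1.74% of all), and the ESRRB binding motif TCAAGGTCA was in none (0.423% of all). Every motif was searched on both strands, and the octamer overlaps in letters with the composite element. The 11 windows had a median GC content of 57.7%, against 52.7% for all windows.

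The deposited values are log2 levels from RMA (robust multi-array average), in which 1 unit is a 2-fold difference. Probe sets differ in affinity, so levels are compared between arrays and not between genes. All 10 factors lay above 4.84 on every array, the level used to leave out dim genes, which 12042 genes passed. Since each group is a single array, replicate error is unknown: nothing was tested, and no order of arrays below can be set against a spread. The Prdm14 probe set read 5.57, 5.77, 5.53 and 5.71 on the mouse, sea urchin, CBFA2T and empty vector arrays, and so did not separate the groups. The sources used here do not say where its probes lie, so it does not check the labels, and each group name means the array labelled with it. Of the core factors, Pou5f1 (6.51 to 6.61) and Sox2 (7.74 to 7.82) were bright and close on all arrays.

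No factor was 2-fold apart between any 2 arrays. The differences were small. The mouse array was the highest for 7 of the 10 factors and the sea urchin array the lowest for 7. Among all 12042 genes, 23.2% were highest on the mouse array and 22.4% lowest on the sea urchin array. The empty vector array was never the highest for a factor and was the lowest for Nr0b1 only. Of all genes, 24.4% were highest and 25.3% lowest on it.

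**Figure D1:**
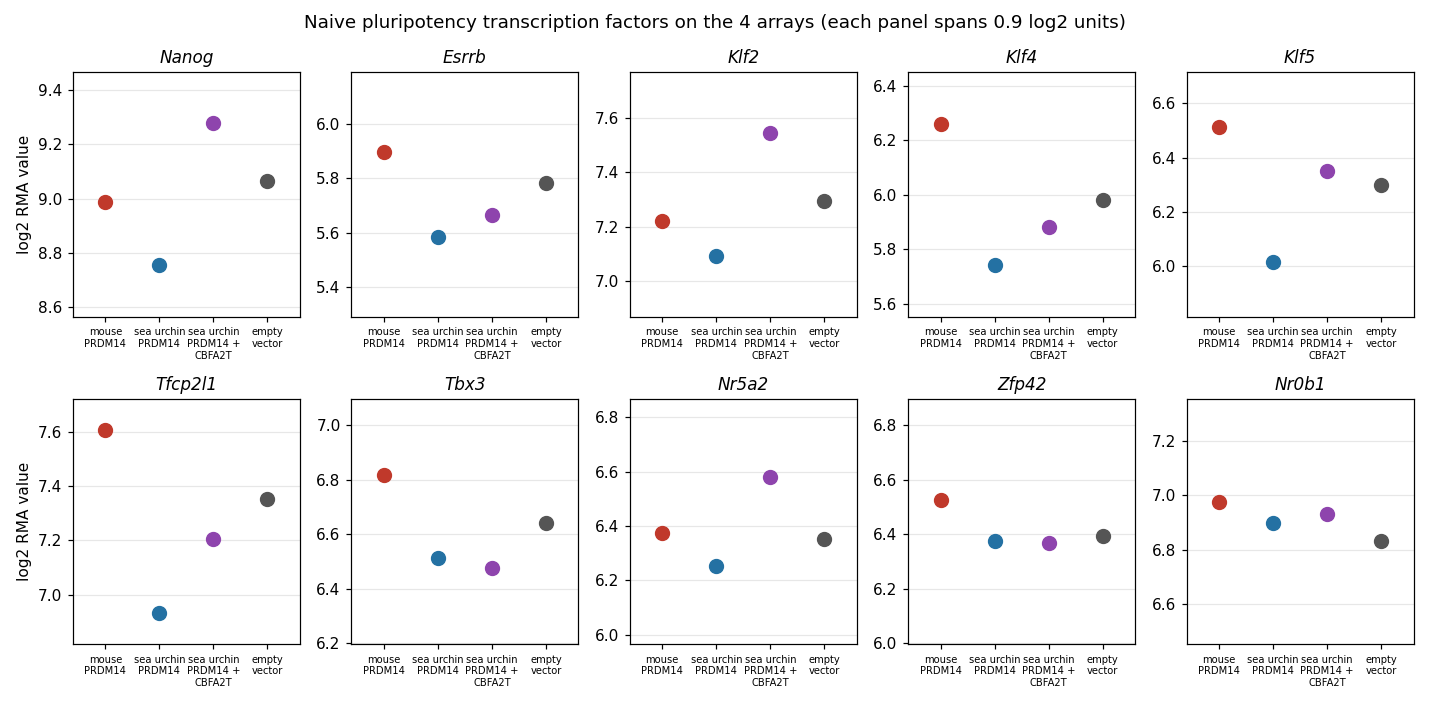
Log2 RMA level (y axis) of each factor on the mouse PRDM14, sea urchin PRDM14, sea urchin PRDM14 and CBFA2T, and empty vector arrays (x axis), 1 point per array with no error bar. Every panel spans the same log2 width, and Tfcp2l1, from 6.93 to 7.60, has the widest spread.

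The LIF and STAT3 targets come first. Tfcp2l1, a CP2 family activator, had log2 levels of 7.60 on the mouse array, 6.93 on the sea urchin array, 7.21 on the CBFA2T array and 7.35 on the empty vector array. Its range of 0.67, or 1.59-fold, was the widest of the 10, and 1.21% of the genes past the filter had a range as wide. Klf4, a zinc finger factor of the reprogramming set, had log2 levels of 6.26 on the mouse array, 5.74 on the sea urchin array, 5.88 on the CBFA2T array and 5.98 on the empty vector array. Both genes were thus highest with mouse PRDM14, then with the empty vector, then with CBFA2T, and lowest with sea urchin PRDM14 alone. Klf5, a further KLF activator of self-renewal, had log2 levels of 6.51 on the mouse array, 6.02 on the sea urchin array, 6.35 on the CBFA2T array and 6.30 on the empty vector array. It shared the top and bottom arrays with Tfcp2l1 and Klf4, while its CBFA2T and empty vector levels lay only 0.05 apart.

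Esrrb and Tbx3 had the same array on top, with narrower ranges. Esrrb, an orphan nuclear receptor, had log2 levels of 5.90 on the mouse array, 5.58 on the sea urchin array, 5.67 on the CBFA2T array and 5.78 on the empty vector array. Tbx3, a T-box factor that promotes self-renewal, had log2 levels of 6.82 on the mouse array, 6.51 on the sea urchin array, 6.47 on the CBFA2T array and 6.64 on the empty vector array. For both, the 2 sea urchin protein arrays lay below the empty vector array, and ranges as wide as theirs were found in 17.8% and 13.5% of genes.

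Nanog, Klf2 and Nr5a2 had another order, with the CBFA2T array on top. These are 3 of the 10 factors, near the 27.3% of all genes past the filter that were highest on that array. Nanog, the homeobox factor at the centre of the network, had log2 levels of 8.99 on the mouse array, 8.75 on the sea urchin array, 9.28 on the CBFA2T array and 9.07 on the empty vector array. Klf2, a zinc finger factor stabilised by MEK inhibition, had log2 levels of 7.22 on the mouse array, 7.09 on the sea urchin array, 7.55 on the CBFA2T array and 7.29 on the empty vector array. In both genes the mouse array lay slightly below the empty vector array. Nr5a2, an orphan nuclear receptor that can replace Pou5f1 in reprogramming, had log2 levels of 6.37 on the mouse array, 6.25 on the sea urchin array, 6.58 on the CBFA2T array and 6.35 on the empty vector array. The mouse and empty vector arrays were 0.02 apart for Nr5a2. RefSeq lists the pseudogenes Nanog-ps1 and Nanog-ps2, and whether the Nanog probe set also detects such copies was not tested.

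Zfp42 and Nr0b1 hardly varied. Zfp42 (Rex1), a YY1-related zinc finger gene used as a marker of the naive state, had log2 levels of 6.53 on the mouse array, 6.38 on the sea urchin array, 6.37 on the CBFA2T array and 6.39 on the empty vector array. Nr0b1 (Dax1), a nuclear receptor without a classical DNA-binding domain that binds POU5F1 and NR5A2, had log2 levels of 6.98 on the mouse array, 6.90 on the sea urchin array, 6.93 on the CBFA2T array and 6.83 on the empty vector array. Their ranges of 0.16 and 0.15 were matched or exceeded by 63.9% and 68.6% of genes. A pseudogene Zfp42-ps1 is listed in RefSeq as well, and its part in the Zfp42 signal was not tested.

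With mouse PRDM14, 8 of the 10 factors were above the empty vector array, where 48.4% of all genes were. Their median log2 difference was 0.14, beside -0.01 for all genes. The highest were Klf4 (log2 difference 0.28, 1.21-fold), Tfcp2l1 (0.25, 1.19-fold), Klf5 (0.22, 1.16-fold) and Tbx3 (0.18, 1.13-fold). A difference at least as high as that of Klf4 was found in 3.32% of genes, and one as high as that of Tbx3 in 9.92%. Nr0b1 (0.15), Zfp42 (0.13), Esrrb (0.12) and Nr5a2 (0.02) were above 0 by less. Nanog (-0.08) and Klf2 (-0.07) were the 2 factors below 0. None was 1.5-fold apart (0.457% of all genes were) or 2-fold apart (0.083%).

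With sea urchin PRDM14 alone, 9 of the 10 factors were below the empty vector array, where 48.4% of all genes were. The median log2 difference was -0.20, beside 0.01 for all genes. Tfcp2l1 differed by -0.42 (1.34-fold lower), and 0.606% of genes were as low or lower. Nanog followed at -0.31, Klf5 at -0.28, Klf4 at -0.24, Klf2 and Esrrb at -0.20 each. Tbx3 (-0.13), Nr5a2 (-0.10) and Zfp42 (-0.02) lay closer to 0, and Nr0b1 at 0.07 was the exception. None was 1.5-fold apart (0.498% of all genes were) or 2-fold apart (0.0332%). The 3 comparisons with the empty vector share that array, so their values are not independent of each other. The remaining comparisons follow from these 3 by subtraction, so they add no further measurement. A low level on the sea urchin array thus enters every comparison that uses that array.

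**Figure D2:**
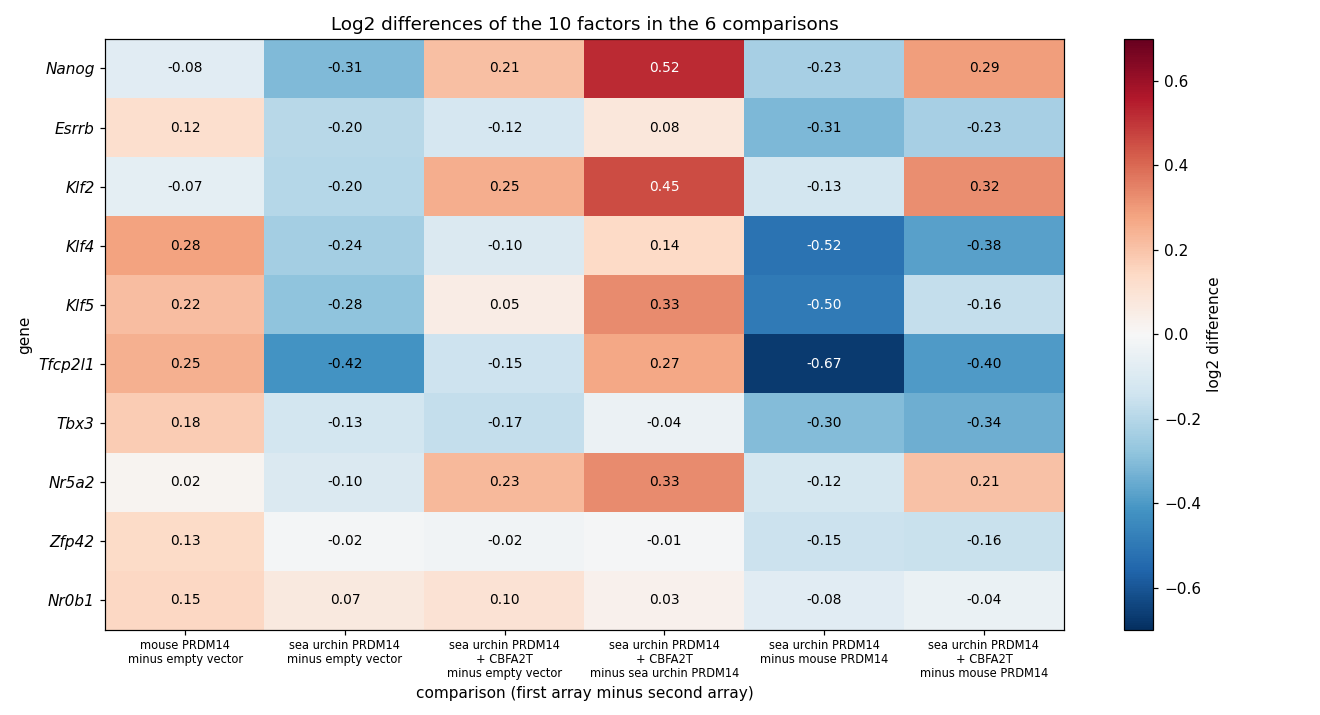
Log2 difference of each factor (rows) in the 6 comparisons (columns, first array minus second array), with the value printed in each cell, red above 0 and blue below. The column of sea urchin PRDM14 minus mouse PRDM14 is below 0 for all 10 factors.

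With CBFA2T in addition to sea urchin PRDM14, 5 factors were above and 5 below the empty vector array, where 51.6% of all genes were above. The median was 0.013, beside 0.0054 for all genes. Klf2 (0.25), Nr5a2 (0.23), Nanog (0.21), Nr0b1 (0.10) and Klf5 (0.05) were above. Tbx3 (-0.17), Tfcp2l1 (-0.15), Esrrb (-0.12), Klf4 (-0.10) and Zfp42 (-0.02) were below. None was 1.5-fold apart (0.822% of all genes were) or 2-fold apart (0.208%).

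Between the CBFA2T array and the sea urchin array, 8 of the 10 factors were higher with CBFA2T, where 49.9% of all genes were. The median log2 difference was 0.21, beside -0.00 for all genes. Nanog was higher by 0.52 (1.44-fold) and Klf2 by 0.45 (1.37-fold), and 0.465% and 0.623% of genes were as high or higher. Klf5 and Nr5a2 were each higher by 0.33, Tfcp2l1 by 0.27 and Klf4 by 0.14. Esrrb (0.08), Nr0b1 (0.03), Zfp42 (-0.01) and Tbx3 (-0.04) were near 0. None was 1.5-fold apart (0.515% of all genes were) or 2-fold apart (0.183%). Genes of the 2-cell-like state differed on the same array: the summed linear level of 11 such genes was 1651 on the CBFA2T array, 471 on the sea urchin array and 455 on the empty vector array. The zinc finger genes Zscan4e (4.58), Zscan4b (4.15), Zscan4d (2.33) and Zscan4c (1.91) had the largest log2 differences of these. The part of such cells in the factors' levels was not tested.

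Set directly against mouse PRDM14, the sea urchin array had lower levels of all 10 factors, where 46.5% of all genes were lower. The median was -0.27, beside 0.01 for all genes, and values ran between -0.67 and -0.08. Tfcp2l1 was 1.59-fold lower, Klf4 1.43-fold lower (-0.52) and Klf5 1.41-fold lower (-0.50). Esrrb (-0.31), Tbx3 (-0.30), Nanog (-0.23), Zfp42 (-0.15), Klf2 (-0.13) and Nr5a2 (-0.12) were lower by less, and Nr0b1 by least (-0.08). Tfcp2l1 was the only factor past 1.5-fold in any of the 6 comparisons; 0.515% of all genes passed that size here, and 0.0581% passed 2-fold.

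With CBFA2T, 7 factors were lower than on the mouse array, where 47% of all genes were, and the median was -0.16, beside 0.01 for all genes. Tfcp2l1 (-0.40), Klf4 (-0.38), Tbx3 (-0.34) and Esrrb (-0.23) were lower, followed by Klf5 (-0.16), Zfp42 (-0.16) and Nr0b1 (-0.04). Klf2 (0.32), Nanog (0.29) and Nr5a2 (0.21) were higher. On these arrays 3 factors thus lay above the mouse array and 4 at least 0.23 below it. None was 1.5-fold apart (0.739% of all genes were) or 2-fold apart (0.183%).

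**Figure D3:**
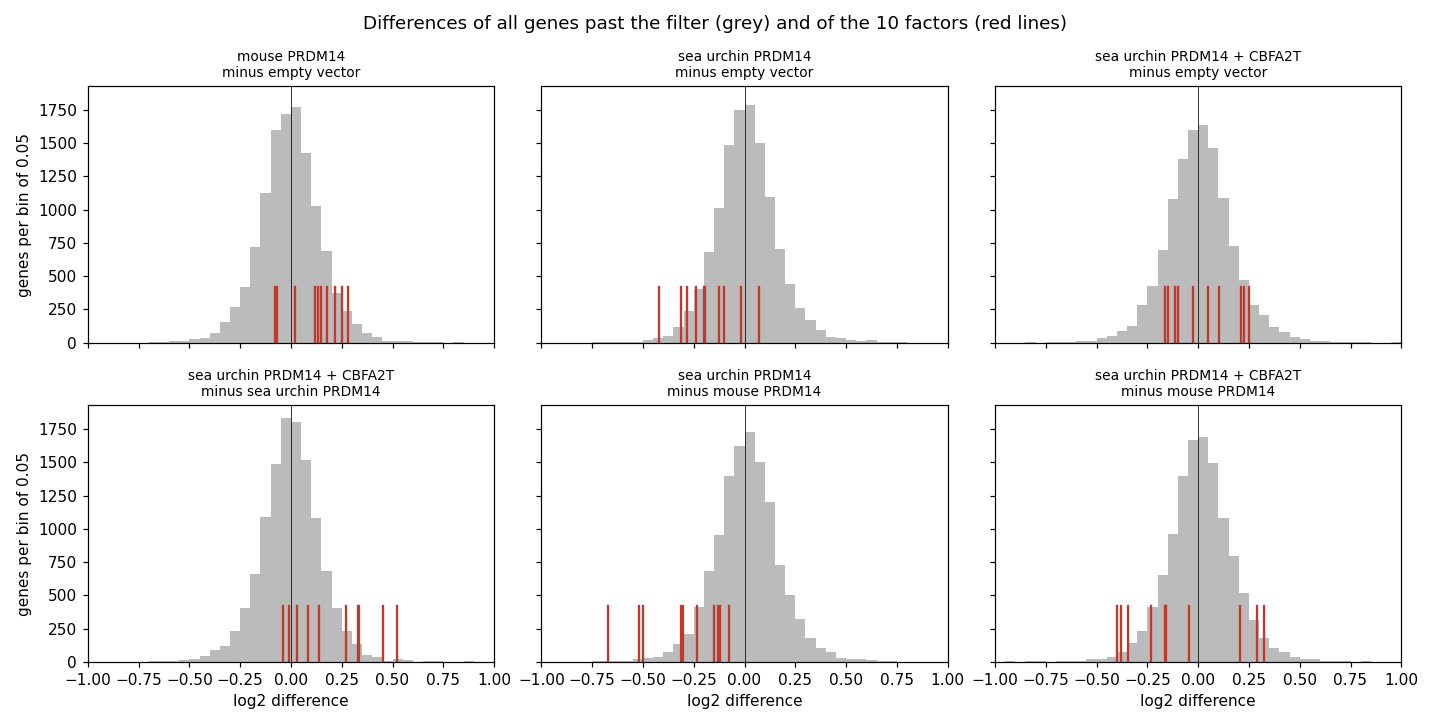
Number of genes past the filter (grey bars, y axis, per bin of log2 difference on the x axis) in the 6 comparisons, with a red line for each of the 10 factors; genes beyond 1 log2 unit lie outside the axes. With sea urchin PRDM14 minus mouse PRDM14 all 10 lines lie left of 0, and with sea urchin PRDM14 and CBFA2T minus the empty vector 5 lie on each side.

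The mouse PRDM14 minus empty vector and the CBFA2T minus sea urchin PRDM14 differences share no array. They had the same sign for 6 of the 10 factors (Esrrb, Klf4, Klf5, Tfcp2l1, Nr5a2 and Nr0b1) and for 52.1% of the 12042 genes. Nanog and Klf2 had the highest differences with CBFA2T and were the only 2 factors below 0 with mouse PRDM14.

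**Figure D4:**
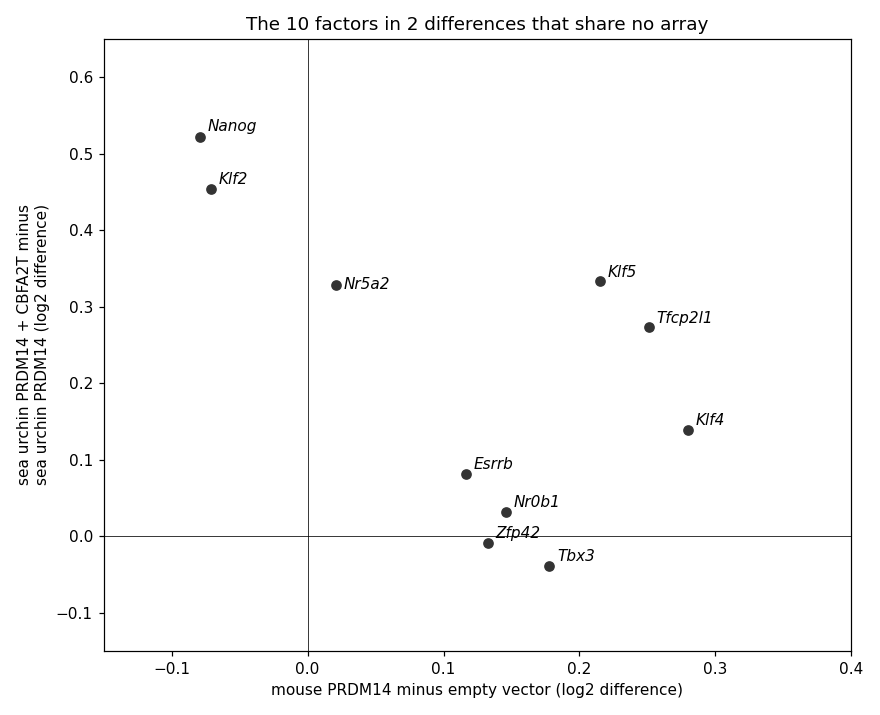
Log2 difference of each factor between the mouse PRDM14 and empty vector arrays (x axis) and between the sea urchin PRDM14 and CBFA2T array and the sea urchin PRDM14 array (y axis), 1 labelled point per gene. Nanog (-0.08, 0.52) and Klf2 (-0.07, 0.45) lie top left, and Klf5 (0.22, 0.33) and Tfcp2l1 (0.25, 0.27) lie high on both axes.

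Of 14 other genes listed for the naive state, 11 passed the filter. Their medians against the empty vector were 0.12 with mouse PRDM14, -0.11 with sea urchin PRDM14 and 0.07 with CBFA2T. The numbers above 0 were 7, 4 and 6 of the 11, beside 48.4%, 51.6% and 51.6% of all genes. Bmp4, a ligand that supports self-renewal, was 6.89 on the mouse array, 5.69 on the sea urchin array, 5.74 on the CBFA2T array and 6.10 on the empty vector array. It was the only one of these 11 past 2-fold, lower by 1.20 with sea urchin PRDM14 and by 1.14 with CBFA2T than with mouse PRDM14. Core pluripotency genes, all 10 past the filter, had medians of 0.09, 0.02 and -0.03 in the same comparisons. Fbxo15, a core pluripotency target gene, had log2 levels of 5.29, 4.93, 5.999 and 5.29 on the mouse, sea urchin, CBFA2T and empty vector arrays. Like Nanog and Klf2 it was highest on the CBFA2T array and lowest on the sea urchin array, and 2-fold apart between them (1.07). Tdgf1, the Nodal co-receptor gene, was opposite, at 8.42, 8.74, 7.58 and 8.25 on the same arrays.

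The genes of the network's signalling inputs were less than 2-fold apart in all 6 comparisons. LIF and STAT3 pathway genes (9 of 10 listed past the filter) had medians of 0.01, -0.05 and -0.00 with mouse PRDM14, sea urchin PRDM14 and CBFA2T against the empty vector. Bcl3, a STAT3-responsive cofactor gene, had the largest difference there, -0.48 for sea urchin PRDM14 minus mouse PRDM14, and Stat3 lay between 6.30 and 6.47 on all arrays. Genes of the GSK3 and beta-catenin pathway (8 of 12) had medians of 0.00, -0.00 and 0.06. Tcf7l1, the repressor of Esrrb named above, was 6.04 on the mouse array, 6.20 on the sea urchin array, 6.49 on the CBFA2T array and 6.36 on the empty vector array. Its level was lowest on the mouse array and highest on the CBFA2T array, while that of Esrrb was highest on the mouse array and lowest on the sea urchin array. The part of Tcf7l1 in the Esrrb levels was not tested.

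FGF and ERK pathway genes (10 of 12) were below the empty vector array with mouse PRDM14 in 10 of 10 cases, where 51.5% of all genes were below. Their median was -0.11, with values between -0.28 and -0.03, and none was 2-fold apart. Fgf4, the FGF ligand gene counted among the other naive-state genes and not in this list, was above the empty vector array by 0.12. Fgfr1, an FGF receptor gene, had log2 levels of 6.11 on the mouse array, 6.49 on the sea urchin array, 6.65 on the CBFA2T array and 6.39 on the empty vector array. With sea urchin PRDM14 alone 5 of the 10 were below 0 (median -0.02), and with CBFA2T 8 of the 10 (median -0.08). In each of these comparisons 48.4% of all genes were below 0. Fgfr2, a listed FGF receptor gene below the filter on all arrays, went the other way. It was above the empty vector array by 0.06 with mouse PRDM14, 0.01 with sea urchin PRDM14 and 0.04 with CBFA2T. Genes that act in exit from the naive state (8 of 11) had medians of -0.12, -0.06 and -0.04. Primed epiblast genes (13 of 15) had medians of -0.09, 0.01 and -0.08. Lefty2, a Nodal antagonist gene, was their most different member, at 6.08 on the mouse array, 7.004 on the sea urchin array, 6.46 on the CBFA2T array and 6.54 on the empty vector array.

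**Figure D5:**
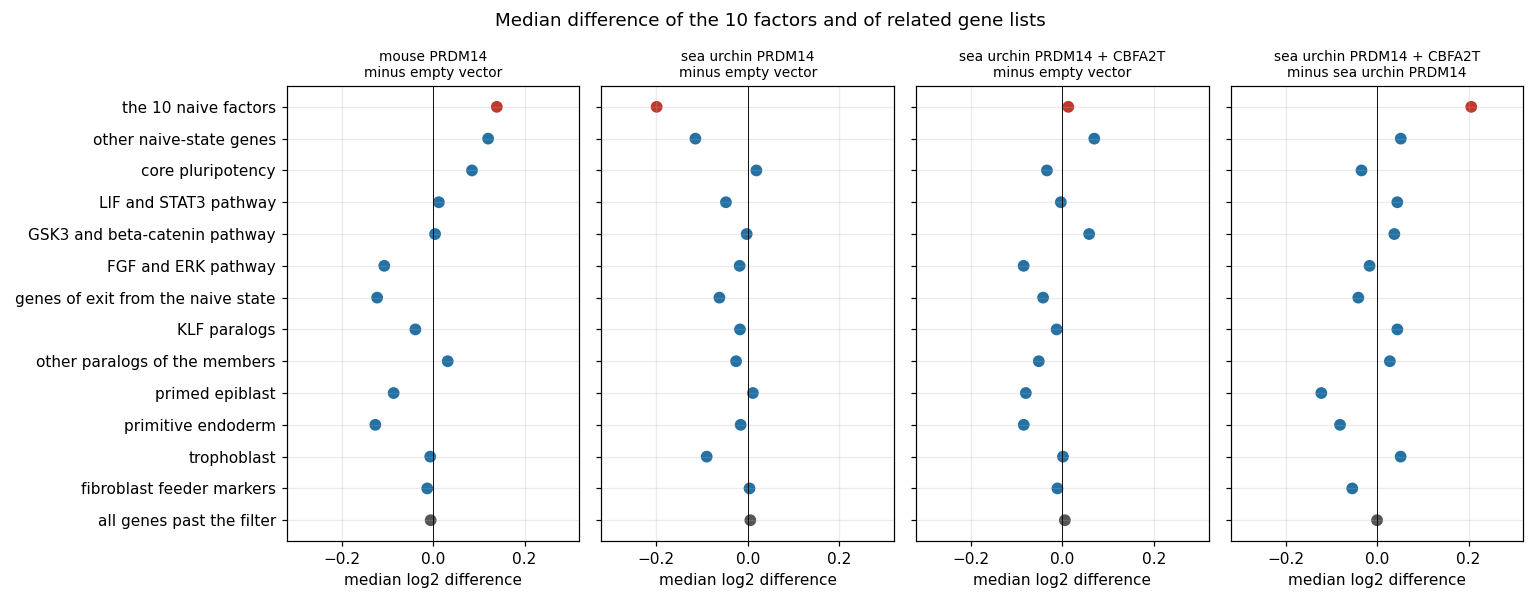
Median log2 difference (x axis) of the 10 factors in red, of 12 related gene lists in blue and of all genes past the filter in grey (rows), in 4 comparisons (panels); the 2-cell-like list is left out. The factors' median is 0.14 with mouse PRDM14, -0.20 with sea urchin PRDM14 and 0.01 with CBFA2T against the empty vector, and 0.21 for CBFA2T minus sea urchin PRDM14.

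Feeder fibroblasts can express Klf4 and other KLF genes. The summed linear level of 21 fibroblast markers was 1462 on the mouse array, 1427 on the sea urchin array, 1335 on the CBFA2T array and 1421 on the empty vector array. Of these, 16 passed the filter, with medians between -0.01 and 0.00 against the empty vector, and Dcn, Lum, Postn, Twist2 and S100a4 stayed below it on all arrays. Fn1, the fibronectin gene, was the most different, at 8.09, 7.86, 7.30 and 7.79 on the mouse, sea urchin, CBFA2T and empty vector arrays. The feeders' part in the factors' levels was not tested.

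For the 3 factors with the widest ranges, the genes with the most similar levels were sought among 10886 genes by Euclidean distance between centred log2 levels over the 4 arrays. Nearest to Tfcp2l1 were Atp1b1, a sodium pump subunit gene (distance 0.10), Add1 (0.12) and Slc25a36 (0.12). Those nearest to Nanog were Wdr53 (0.06), Foxn2 (0.06) and Marveld1 (0.07). For Klf4 they were Scrn3 (0.03), Spint1, a protease inhibitor gene (0.04), and Map1lc3b, an autophagy gene (0.06). With 4 points per gene, such likeness is a description of these arrays. The 10 factors lie on 8 chromosomes, with Tfcp2l1 and Nr5a2 both on chromosome 1 and Klf2 and Zfp42 both on chromosome 8. Genes on the same chromosome did not share a full order of arrays. Tfcp2l1 was highest on the mouse array and Nr5a2 on the CBFA2T array, though both were lowest on the sea urchin array.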

How the data were processed

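Total RNA was measured on 4 GeneAtlas arrays, all of strip 2. The deposited values are log2 levels that the authors made with RMA, per the submitters' processing notes; its version, the genome build and which arrays were normalized together are left unstated by the sources used here. Array medians were 4.54 to 4.55, so a shift common to most genes cannot be seen, and background pulls dim genes' folds toward 1. Precision is limited by the number of arrays.

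Of 41345 probe sets, 23521 carried 1 gene symbol in the platform annotation, 1814 several and 16010 none. A gene took its probe set with the highest mean, and genes reaching 4.84, the median of named probe-set values, on any array were kept. Differences between arrays were taken in 6 comparisons and called at 2-fold. With 1 array per group, no test was possible.

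The factors, 13 gene lists and comparisons were chosen with earlier results of these data known. Named genes were all factors, list members past 2-fold in any comparison (at most 4 a list) or otherwise the most different member, and the 3 nearest genes of 3 factors. Prdm14, Stat3, Pou5f1, Sox2, Fgf4, Fgfr2 and the 5 fibroblast markers below the filter were named outside this rule, after their values were seen. Cyclic loess was run in limma 3.58.1 under R 4.3.3, and all else in Python 3.11.15 with pandas 2.3.3 and numpy 2.4.6.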

Additional observations from a re-analysis of the deposited data

How the results depend on the processing

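The alternatives were a 1.5-fold threshold, cyclic loess between arrays, equal array medians, averaging a gene's probe sets, no filter on dim genes and a filter at the 75th percentile. None of the 60 factor differences (10 factors in 6 comparisons) changed sign under any of them, and the largest shift was 0.053 on the log2 scale, under cyclic loess. As each factor has 1 probe set and passes both filters, only cyclic loess and equal medians could change its values. At 1.5-fold, 1 factor was called (Tfcp2l1, sea urchin against mouse PRDM14). All genes called at that size numbered 55 for mouse PRDM14, 60 for sea urchin PRDM14 and 99 for CBFA2T against the empty vector. They numbered 62 for CBFA2T against sea urchin PRDM14, 62 for sea urchin against mouse PRDM14 and 89 for CBFA2T against mouse PRDM14. These counts follow from the lower threshold. The other counts stayed within 1.5 times, and the medians moved by less than the SD over genes. No paired analysis was possible because each group has 1 array. Without replicates, differences of this size cannot be told apart from variation between cultures or arrays.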

Other observations

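Relatives of the factors had medians near 0 against the empty vector array, while single genes went both ways. With mouse PRDM14, KLF paralogs ran from -0.23 to 0.29, beside -0.08 to 0.28 for the 10 factors. KLF paralogs (11 of 14 listed past the filter) had medians of -0.04 with mouse PRDM14, -0.02 with sea urchin PRDM14 and -0.01 with CBFA2T. Klf10, a TGF-beta-inducible KLF gene, was the most different, at 6.45 on the mouse array, 5.98 on the sea urchin array, 6.21 on the CBFA2T array and 6.16 on the empty vector array. Its order had the same top and bottom arrays as Klf4 and Klf5. Paralogs of the other factors (11 of 15) had medians of 0.03, -0.03 and -0.05, and Esrra, a relative of Esrrb, was 0.22 to 0.29 lower on all 3 PRDM14 arrays than on the empty vector array.

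Genes past the filter of the lineages next to the epiblast were less than 2-fold apart in all 6 comparisons. Primitive endoderm genes (9 of 12) had medians of -0.13, -0.02 and -0.08 with mouse PRDM14, sea urchin PRDM14 and CBFA2T against the empty vector. Sparc, a matrix protein gene, was opposite to its list with mouse PRDM14, higher by 0.37. Trophoblast genes (8 of 11) had medians of -0.01, -0.09 and 0.00. Ets2, a transcription factor gene of the trophoblast, was at 5.60 on the mouse array, 5.15 on the sea urchin array, 5.60 on the CBFA2T array and 5.66 on the empty vector array. The sea urchin array was thus the lowest for Ets2, as it was for 7 of the 10 naive factors.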
